A study of Mus musculus with 32 samples.

Results

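The nuclear-encoded subunits of the mitochondrial respiratory chain and the ATP synthase were examined in dorsal hippocampus and cerebellar vermis of mice. Members were the protein-coding genes whose symbols begin with Ndufa, Ndufb, Ndufc, Ndufs or Ndufv and a digit (complex I), the genes Sdha to Sdhd (complex II), symbols beginning with Uqcr plus Cyc1 (complex III), symbols beginning with Cox and a digit from 4 to 8 (complex IV), and symbols beginning with Atp5 (complex V). This gave 90 of the 56415 genes in the deposited table, of which 39 belong to complex I, 4 to complex II, 9 to complex III, 19 to complex IV and 19 to complex V. The chain passes electrons from NADH (complex I) and succinate (complex II) through complex III to oxygen at complex IV, pumping protons across the inner mitochondrial membrane, and complex V uses the returning protons to make ATP. Neurons draw most of their ATP from this pathway. The catalytic centres of complexes I, III and IV include proteins made inside the mitochondrion, whereas the subunits described here are transcribed in the nucleus and imported.

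PolyA RNA was sequenced from 16 C57BL/6J mice, each of which gave 1 hippocampal and 1 vermis library, for 32 libraries in 8 groups of 4 (2 females and 2 males each). Mice were wild type (WT) or lacked ACSS2 (KO), an acetyl-CoA synthetase of nucleus and cytosol that uses acetate. Their dams received daily intraperitoneal injections of 3 g/kg ethanol as a 20% solution, or of the same volume of saline, from the day after a 5-night mating period began until birth. Offspring were killed at postnatal day 40 to 50, and each group is called here by genotype and prenatal exposure (WT saline, WT ethanol, KO saline, KO ethanol). The labels state neither how or in which cells Acss2 was deleted nor the litter or library preparation batch of a mouse. In whole tissue, fewer cells of a type and less RNA per cell cannot be told apart.

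Library totals ran from 54092519 to 96664509 counts in hippocampus and from 23085928 to 73803508 in vermis. Acss2 (ENSMUSG00000027605) checked the genotype labels. In hippocampus it was at 12.0 ± 1.00 CPM in KO against 55.7 ± 4.19 CPM in WT (SD, n = 8 each, two-sided exact permutation p = 0.000155), and in vermis at 16.7 ± 3.45 against 61.5 ± 4.76 CPM (n = 8 each, exact permutation p = 0.000155), each the smallest p this test can give. Genotypes did not overlap. CPM are read counts per 1e6 counts of the library, after scaling for composition. The vermis library of KO ethanol F1 stood apart, with a mean Purkinje cell marker level of 7.53 on the log2 CPM scale against 8.53 to 9.28 in the other 15, and a myelin marker level of 9.22 against 7.54 to 8.14. The vermis library of KO ethanol F3 had the fewest counts. The vermis library of WT saline F1 stood apart from its group as well: over all genes its chi-square per degree of freedom against the other 3 was 185 to 211, where those 3 differed from each other by 8.79 to 18.3. For KO ethanol F1 the same measure was 97.1 to 160, against 11.2 to 56.1 among its other 3. In WT saline F1 the mitochondrially encoded genes took 3.43% of counts, against 4.73% to 4.85% in the rest of its group, and the mean over all members was 5.57 on the log2 CPM scale against 5.38 to 5.40. The main vermis results are also given without these libraries.

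Promoters are shown for 4 members, chosen after their values were seen, that differ in the vermis results: Atp5f1e and Ndufb4 are among those that rose furthest with the KO, while Sdha did not pass the test and Atp5f1b rose only slightly. They run from 250 bases before to 50 after the start of transcription, 5′ to 3′, and come from RefSeq (GRCm38.p6, not the build of the count table). They lie at chr2:174464052-174464351 (Atp5f1e), chr16:37654319-37654618 (Ndufb4) and chr13:74350191-74350490 (Sdha) on the minus strand, and at chr10:128083057-128083356 (Atp5f1b) on the plus strand. Capitals mark letters that match GCGCA, any base and GCGC (NRF1, nuclear respiratory factor 1, a regulator of respiratory chain genes), AANATGGCG (YY1) or CCGGAAG (the ETS motif that GABP, also called NRF2, reads), on either strand.
Atp5f1e: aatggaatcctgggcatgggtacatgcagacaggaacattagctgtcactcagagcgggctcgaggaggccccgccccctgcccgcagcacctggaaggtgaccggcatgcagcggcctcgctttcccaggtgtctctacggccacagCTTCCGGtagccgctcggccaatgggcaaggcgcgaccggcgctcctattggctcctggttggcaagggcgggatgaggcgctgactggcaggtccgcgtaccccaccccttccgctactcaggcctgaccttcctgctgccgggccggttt
Ndufb4: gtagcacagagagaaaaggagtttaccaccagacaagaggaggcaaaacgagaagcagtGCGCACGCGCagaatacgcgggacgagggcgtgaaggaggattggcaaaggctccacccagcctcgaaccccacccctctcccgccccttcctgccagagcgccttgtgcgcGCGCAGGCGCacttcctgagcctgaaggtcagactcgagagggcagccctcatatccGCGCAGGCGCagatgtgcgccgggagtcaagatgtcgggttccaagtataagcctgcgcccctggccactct
Sdha: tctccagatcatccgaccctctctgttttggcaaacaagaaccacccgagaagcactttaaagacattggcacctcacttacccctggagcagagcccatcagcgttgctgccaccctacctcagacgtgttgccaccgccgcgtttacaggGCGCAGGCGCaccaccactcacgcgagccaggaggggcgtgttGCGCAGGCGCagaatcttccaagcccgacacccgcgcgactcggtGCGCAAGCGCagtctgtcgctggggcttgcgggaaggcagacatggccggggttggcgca
Atp5f1b: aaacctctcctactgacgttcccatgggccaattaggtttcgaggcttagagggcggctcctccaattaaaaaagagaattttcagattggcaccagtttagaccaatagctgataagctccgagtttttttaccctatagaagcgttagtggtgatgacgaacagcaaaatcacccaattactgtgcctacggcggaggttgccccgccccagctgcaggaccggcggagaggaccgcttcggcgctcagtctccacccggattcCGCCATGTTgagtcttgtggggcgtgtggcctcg
Ndufb4 and Sdha each hold 3 NRF1 matches, Atp5f1e holds 1 ETS match and Atp5f1b holds 1 YY1 match. Of 89 distinct symbols, 68 had a RefSeq promoter, and among these 17 held an NRF1 match (25.0%, against 7.17% of the promoters of 17492 protein-coding genes), 10 a YY1 match (14.7% against 3.64%) and 16 an ETS match (23.5% against 12.9%). The marked matches in these promoters do not overlap each other. A match is a description of the letters, not a site that was shown to be bound. Members with an NRF1 match had a median log2 difference of 0.45 between KO saline and WT saline vermis, and those without one 0.52. For the YY1 motif the medians were 0.58 with and 0.51 without a match, and for the ETS motif 0.51 and 0.51.

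Levels differed widely among members. Scaled per kilobase of gene, Cox8a, a small common subunit of complex IV, was highest in WT saline vermis at 241 ± 13.2 CPM per kb (SD, n = 4), followed by Atp5f1a (231 ± 13.3) and Atp5f1b (225 ± 8.75), the subunits of the catalytic head of ATP synthase. Cox8a and Atp5f1a did not differ beyond their spread. In WT saline hippocampus Cox8a was again at the top (275 ± 35.9 CPM per kb), then Cox6a1 (181 ± 42.7) and Atp5f1a (178 ± 8.14). The isoforms known from heart, muscle, lung or testis (Cox4i2, Cox6a2, Cox6b2, Cox7a1, Cox7b2, Cox8b and the Ndufa4 paralog Ndufa4l2) were the lowest tested members in both tissues, at 3.57 CPM per kb or less. Cox8c and Ndufb11b had no counts in any library (a 0 allows up to 3 counts per library), and Cox7b2 passed the filter on low counts only where vermis libraries were included. The tests therefore covered 87 members in hippocampus and 88 in vermis.

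In the vermis, respiratory chain transcripts were higher in KO than in WT mice in every complex. In saline-exposed mice 73 of 88 members rose and 0 fell, with a median log2 fold change of 0.51, where 4.63% of all 22441 genes tested rose and 0.285% fell (edgeR quasi-likelihood test, Benjamini-Hochberg adjusted p under 0.05) and the median of all genes was -0.02. In ethanol-exposed mice 68 of 88 rose and 0 fell (median 0.53, all genes 0.03), where 5.74% of genes rose and 1.8% fell. The 2 comparisons have no library in common, but they share the fit's low-count filter, scaling, estimate of the spread and sex term. Whether their mice shared litters or preparation batches is not in the labels. They called 66 members in common, which is 66 of 73 and 66 of 68.

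All 4 KO libraries lay above all 4 WT libraries for 77 members in saline mice, against 8.6% of genes, and for 70 in ethanol mice, against 8.34%.  The share of all counts that fell on members was 0.742% ± 0.0123 in WT saline and 0.975% ± 0.0338 in KO saline vermis, and 0.745% ± 0.0318 in WT ethanol and 0.952% ± 0.0326 in KO ethanol (SD, n = 4 each). Without WT saline F1 the saline comparison called 69 members, all higher, with a median of 0.54, where 4.74% of genes rose and their median was -0.01. Without KO ethanol F1 the ethanol comparison called 63 members, without F3 it called 73, and without both 63. The share of all genes called in these fits is not given here.

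**Figure D1:**
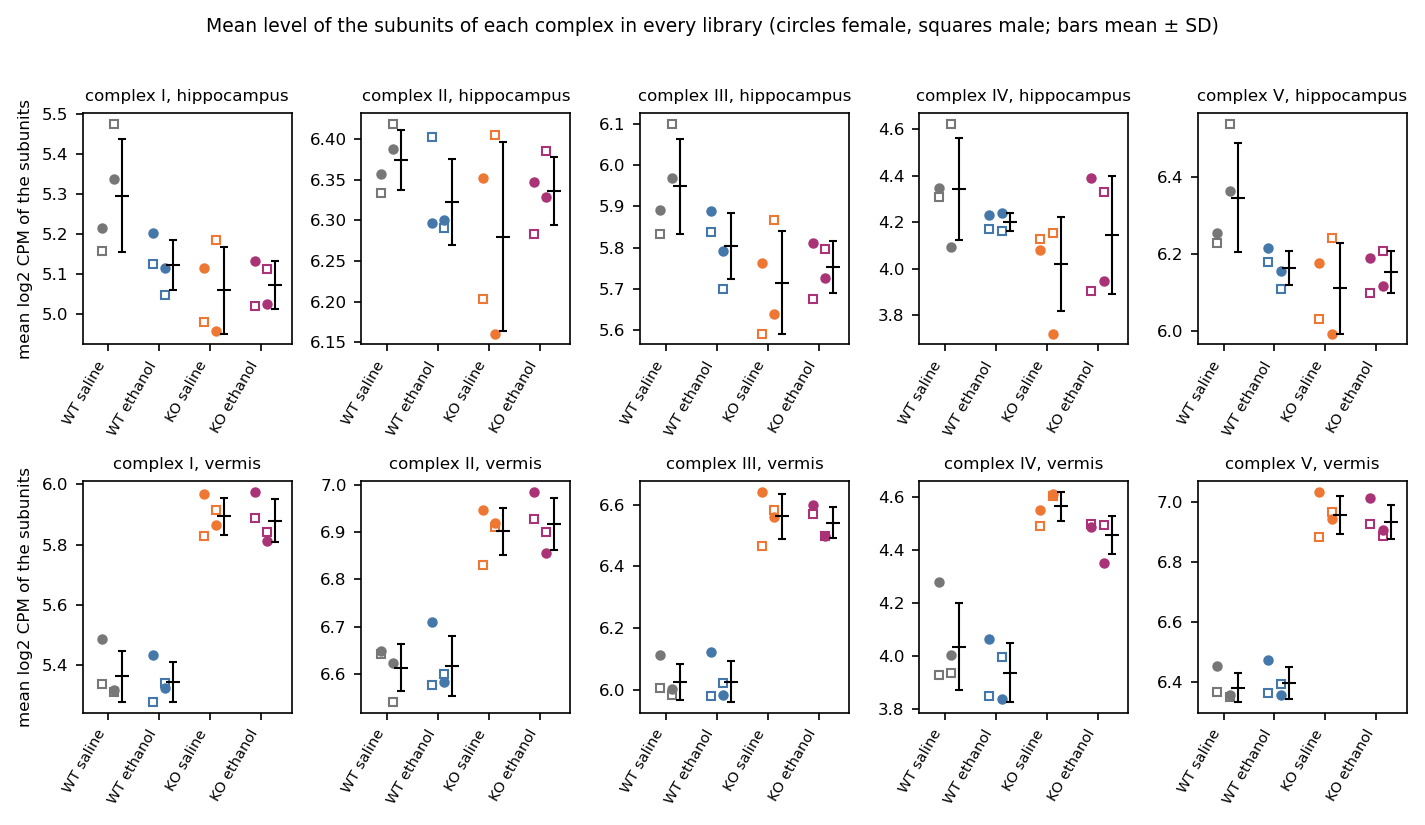
Mean log2 CPM over the tested subunits of each complex in every library, by tissue (rows), complex (columns) and group (colours), with the group mean ± SD. In vermis every KO library lies above every WT library in each complex, whereas in hippocampus the WT saline and KO saline libraries overlap in each complex.

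Complex I feeds electrons from NADH into the chain. Of its 38 tested members 34 rose in KO saline and 32 in KO ethanol vermis (medians 0.54 and 0.59). The accessory subunits, which surround the catalytic core, were nearly all higher: 28 of 29 rose in saline mice, with a median of 0.65, and 27 of 29 in ethanol mice, with a median of 0.63. Among the 7 core subunits 5 and 4 rose, with medians of 0.22 and 0.20; without WT saline F1 3 rose in saline mice, with a median of 0.24. Ndufb4, an accessory subunit of the membrane arm, was at 26.2, 27.1, 25.7 and 24.4 CPM in WT saline and at 44.9, 49.5, 52.4 and 47.3 CPM in KO saline. The lowest KO saline library thus lay well above the highest WT saline one, and the log2 fold change was 0.91 ± 0.067 (SE, edgeR adjusted p = 9.89e-07).

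Ndufc2, another accessory subunit, rose by 0.77 ± 0.056 and by 0.63 ± 0.056 in the 2 exposures (edgeR adjusted p = 9.64e-07 and 3.44e-06). Ndufs1, the largest core subunit and a carrier of iron-sulfur clusters, gave a contrast. Its level was 166, 155, 165 and 166 CPM in WT saline and 163, 148, 157 and 160 CPM in KO saline vermis. The groups overlapped, and the log2 difference was -0.05 ± 0.043 (edgeR adjusted p = 0.684). Ndufv1, which holds the NADH site, differed by 0.10 in saline mice (edgeR adjusted p = 0.506) and passed in ethanol mice at 0.20 (adjusted p = 0.0435). The accessory subunit Ndufa10 differed by -0.01 and -0.02 (edgeR adjusted p = 0.985 and 0.873). Ndufa4 carries a complex I name but is known as a subunit of complex IV; it rose from 100 ± 6.83 to 170 ± 7.62 CPM in saline mice (log2 0.76 ± 0.058, edgeR adjusted p = 1.26e-06).

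Complex II oxidises succinate and is the only complex built from nuclear genes alone. Sdhb, Sdhc and Sdhd, its iron-sulfur subunit and membrane anchors, rose by 0.48, 0.35 and 0.40 on the log2 scale in saline mice and by 0.50, 0.30 and 0.35 in ethanol mice. Sdhb was at 55.6, 53.2, 58.2 and 54.8 CPM in WT saline and at 73.7, 79.5, 81.0 and 76.1 CPM in KO saline. Sdha, the flavoprotein that also belongs to the citric acid cycle, did not pass the test. It was at 453, 404, 449 and 459 CPM in WT saline and 414, 404, 430 and 416 CPM in KO saline, so the groups overlapped (log2 -0.08 ± 0.055, edgeR adjusted p = 0.576).

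In complex III, which passes electrons to cytochrome c, 7 of 9 members rose in each exposure. The 5 small subunits (Uqcrb, Uqcrh, Uqcrq, Uqcr10 and Uqcr11) all rose in both, with medians of 0.85 and 0.85. Uqcrh, the hinge protein, went from 56.5 ± 7.23 to 106 ± 5.59 CPM in saline mice. Of the catalytic pair, the Rieske protein gene Uqcrfs1 rose by 0.36 and 0.27 and the cytochrome c1 gene Cyc1 differed by 0.06 and 0.03 (edgeR adjusted p = 0.759 and 0.773). Of the large core proteins, Uqcrc2 rose in both exposures (0.21 and 0.19) and Uqcrc1 did not pass (0.16 and 0.12). Without WT saline F1, 0 of these 2 core proteins passed in saline mice (median 0.16).

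Complex IV reduces oxygen to water. Of its common subunits 9 of 10 rose in KO saline and 8 of 10 in KO ethanol vermis, with medians of 0.54 and 0.62; Cox5a passed in neither. Cox7a2, which has the muscle counterpart Cox7a1, had the smallest p of complex IV. It was at 42.5, 46.8, 50.4 and 42.6 CPM in WT saline and 81.7, 86.5, 92.1 and 88.5 CPM in KO saline (log2 0.94 ± 0.067, edgeR adjusted p = 9.44e-07). The groups did not overlap in either exposure. Cox4i1, a regulatory subunit, rose from 206 ± 15.5 to 350 ± 25.5 CPM in saline mice and from 205 ± 14.6 to 340 ± 28.7 CPM in ethanol mice. Cox6a1 rose in saline mice (log2 0.29, edgeR adjusted p = 0.00137) and just missed the threshold in ethanol mice (0.16, adjusted p = 0.0602). Cox8a rose by 0.36 and 0.26. With an offset for gene length its value in ethanol mice was -0.0253.

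The alternate isoforms, which replace common subunits in other tissues, mostly did not pass the test: 0 of 7 passed in saline mice by edgeR (1 at an unadjusted p under 0.05, where 14% of all genes were) and 1 of 7 in ethanol mice. That member was Cox7a1, the heart and muscle form of Cox7a2. Its level was 2.05, 1.38, 2.25 and 1.36 CPM in WT saline, 2.39, 2.59, 3.34 and 3.74 CPM in KO saline, 1.13, 1.53, 1.5 and 1.23 CPM in WT ethanol and 2.80, 2.35, 1.75 and 2.79 CPM in KO ethanol. The KO libraries lay above the WT libraries in both exposures, with log2 fold changes of 0.77 ± 0.22 and 0.85 ± 0.22 (edgeR adjusted p = 0.0592 and 0.0305). In saline mice Cox7a1 passed without WT saline F1 (0.90, edgeR adjusted p = 0.0421). Cox4i2 differed by 0.36 and 0.15, and Ndufa4l2 by 0.14 and 0.14. The SE of Cox4i2 was 0.19 and that of Cox8b 0.49 in saline mice. With such an SE, differences of the size seen in the common subunits may have been missed for some isoforms. The part of depth in this was not tested.

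**Figure D2:**
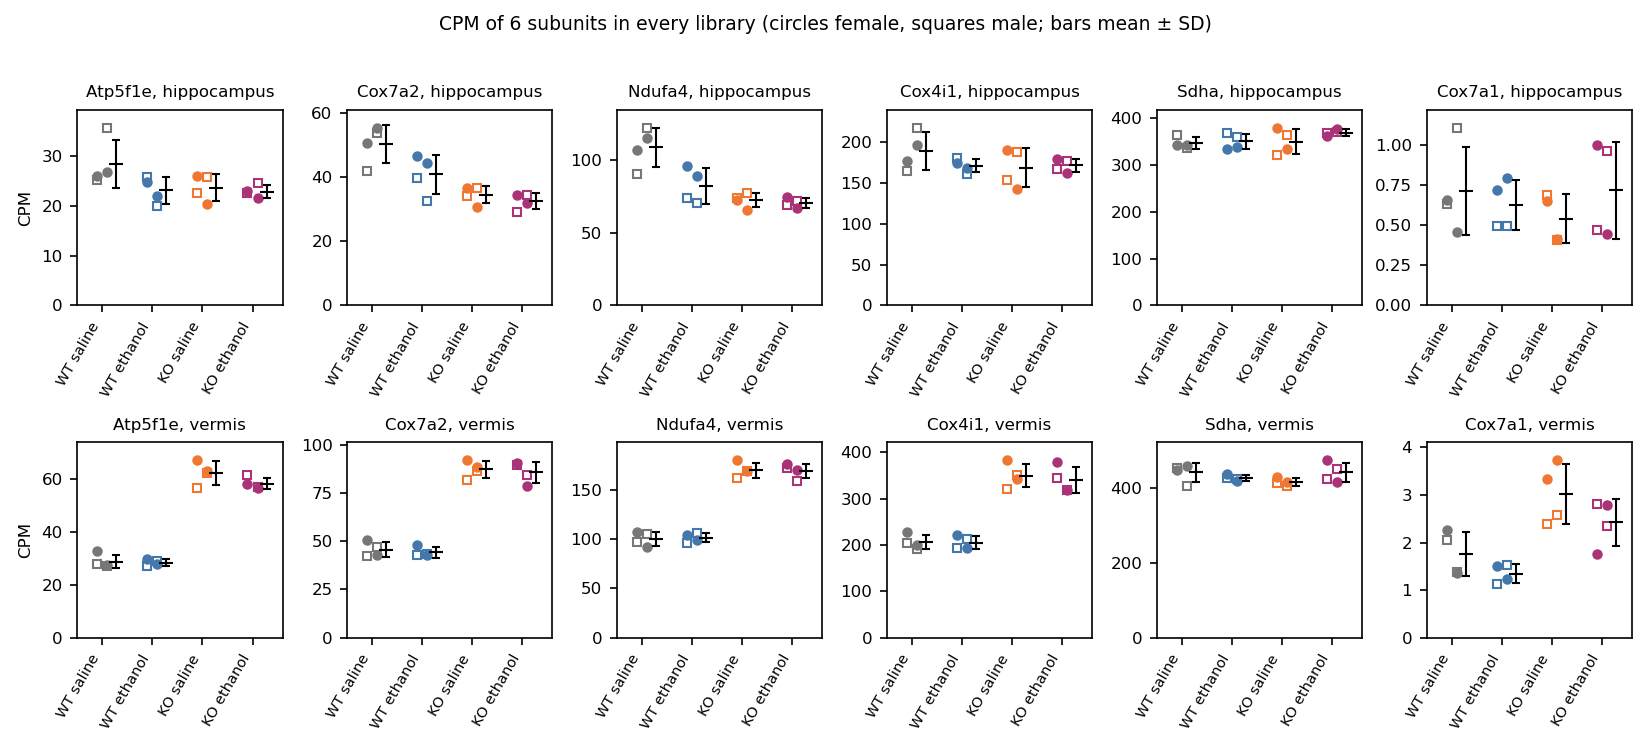
CPM of 6 subunits in each library of hippocampus (top) and vermis (bottom), from 0, with the group mean ± SD. Atp5f1e, Cox7a2, Ndufa4 and Cox4i1 separate KO from WT in vermis, Sdha does not, and Cox7a1 is at a few CPM throughout.

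Complex V is the ATP synthase. In saline mice 18 of 19 members rose and in ethanol mice 15 (medians 0.57 and 0.55). Atp5f1e, the epsilon subunit of the central stalk, had the smallest p of all members, and in saline mice of all 22441 genes tested. It was at 28.1, 27.2, 32.7 and 27.5 CPM in WT saline, 56.7, 62.5, 67.4 and 63.2 CPM in KO saline, 27.0, 29.1, 29.8 and 27.8 CPM in WT ethanol and 61.7, 57.0, 58.4 and 56.8 CPM in KO ethanol vermis. Each KO library was far above each WT library, and the log2 fold changes were 1.11 ± 0.065 and 1.04 ± 0.065 (edgeR adjusted p = 7.93e-07 and 1.72e-07).

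The small membrane subunits Atp5me, Atp5mf, Atp5mg, Atp5mj and Atp5mk, which help ATP synthase dimers form, all rose in both exposures, with medians of 0.92 and 0.95. The 5 gene models of the peripheral stalk also all rose (medians 0.64 and 0.55); 2 of these are Atp5po models that may share reads. Atp5f1b, the catalytic beta subunit, was at 953 ± 37.1 CPM in WT saline and 1158 ± 41.4 CPM in KO saline, a log2 rise of 0.28 ± 0.053 (edgeR adjusted p = 0.00355). In ethanol mice it differed by 0.18 (adjusted p = 0.0531). Atp5f1a, the alpha subunit, did not pass in either exposure (0.18 and 0.09). Atp5if1, the inhibitor that stops the enzyme running backwards, rose by 0.43 and 0.60.

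**Figure D3:**
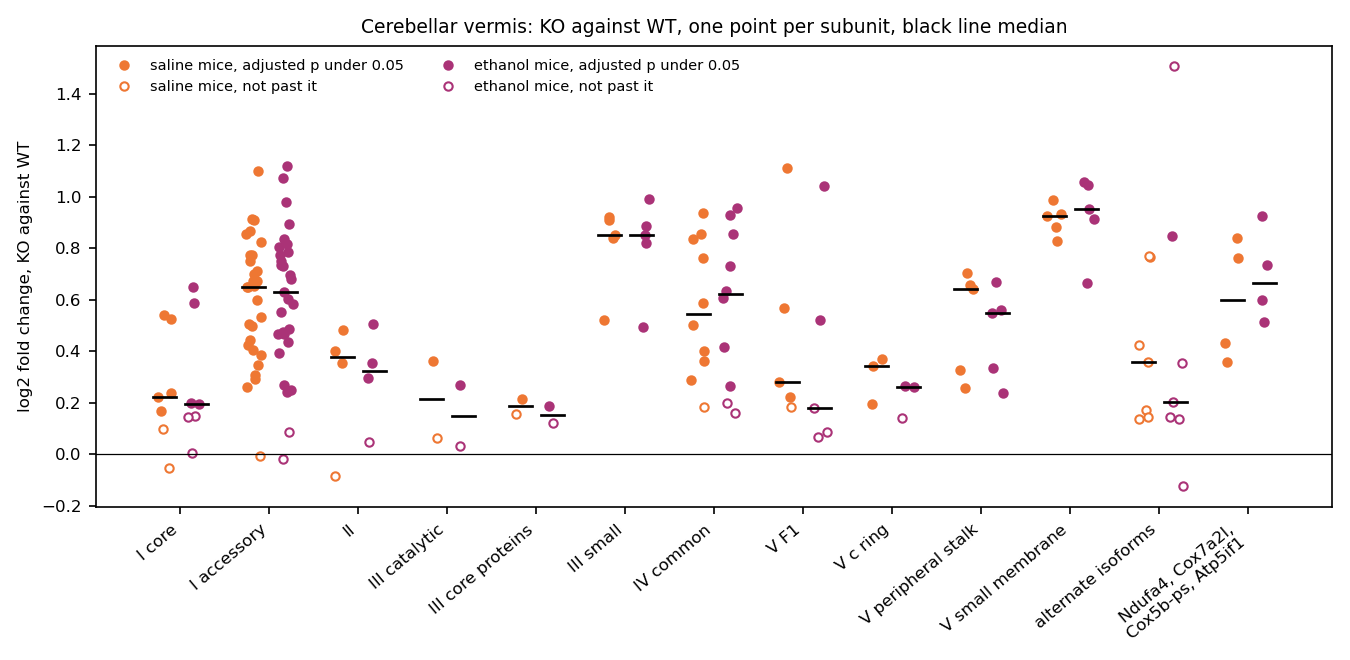
Log2 fold change of each tested subunit between KO and WT vermis, grouped by role, in saline (orange) and ethanol (purple) mice; filled points passed at an adjusted p under 0.05 and black lines are medians. Small and accessory subunits lie higher (median 0.85 for small complex III and 0.92 for small membrane complex V subunits in saline mice) than core and catalytic ones (0.22 for the complex I core). Role was not separated from gene length or level. Across 88 members the saline values had a Spearman rho of -0.35 with log2 length and -0.41 with mean log2 CPM (Pearson r -0.35 and -0.19).

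Other gene lists were read beside the members, among them the cytosolic ribosomal proteins, which are also short and abundant transcripts. Of 85 ribosomal protein genes 79 rose in KO saline and 81 in KO ethanol vermis (medians 0.72 and 0.82), for example Rpl35a by 1.11 and 1.35. Their mean level was 5.65 to 5.83 on the log2 CPM scale in the 8 WT vermis libraries and 6.35 to 6.70 in the 8 KO ones. Of the 13 mitochondrially encoded subunits 2 rose in each exposure, mt-Co3 (0.59 and 0.63) and mt-Nd3 (0.31 and 0.35), and their medians were 0.07 and 0.16. Without WT saline F1, the library low in these genes, 1 rose in saline mice and the median was -0.02. Of 49 assembly factors, which help build the complexes, 12 and 14 rose (medians 0.10 and 0.14), led by Uqcc2 (0.90 and 1.12), Coa3 (0.82 and 0.75) and Fmc1 (0.89 and 0.76).

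No citric acid cycle gene of 13 passed by edgeR (1 and 0 at an unadjusted p under 0.05). Among 16 regulators of mitochondrial biogenesis only Slirp, an RNA-binding protein of mitochondrial transcripts, passed in saline mice (0.53); in ethanol mice Slirp rose by 0.52 and Yy1 and Pprc1 fell by 0.24 and 0.35. Ppargc1a, Nrf1, Esrra and Tfam were between -0.02 and 0.03 in saline mice. Markers of other cells moved unevenly. The 7 Purkinje and 9 cerebellar granule cell markers had 0 calls in both exposures by edgeR. Under an unadjusted p of 0.05 were 0 of each, where 14% of all genes were in saline and 5732 of 22441 in ethanol mice. KO ethanol F1, low in Purkinje cell markers, enters the fitted spread of both exposures. Marker results without it are not given here. In ethanol mice 2 of 5 blood, 2 of 12 choroid plexus, 2 of 8 microglia and 2 of 13 pericyte markers rose; in saline mice 0 of each passed by edgeR (2, 1, 1 and 3 at an unadjusted p under 0.05). The mean blood marker level ran from 4.74 to 6.94 in WT and from 5.67 to 11.4 in KO vermis libraries on the log2 CPM scale. The part of these cells in the members' values was not tested; without KO ethanol F1 and F3 the ethanol median of members was 0.54.

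Gene length moved with the result. The median member is 1471.5 bases long and the median of other protein-coding genes tested is 4298 bases. In saline mice the median log2 fold change of members was 0.70 below 1 kb, 0.59 from 1 to 2 kb, 0.28 from 2 to 4 kb and 0.30 from 4 kb, against 0.33, 0.12, 0.00 and -0.04 for other protein-coding genes. The slope of log2 CPM on log2 length ran from -0.02 to 0.05 in WT and from -0.06 to 0.00 in KO vermis libraries. The lowest WT slope, -0.02, was that of WT saline F1, and the other 7 WT libraries lay at 0.02 to 0.05. With a per-library offset for length the members' median was 0.38 in saline and 0.37 in ethanol mice. With it 64 and 58 members still rose and 0 fell, and 62 of the 73 and 58 of the 68 calls were kept. The share of all genes called with this offset is not given here, so these counts cannot be set against it. The offset moved the medians of complexes III, IV and V in saline mice to 0.29, 0.28 and 0.36, and those of complexes I and III in ethanol mice to 0.38 and 0.25. The deposited length is a single value per gene, and the length of the transcripts expressed is not given. Atp5mg, at 6443 bases in the deposited table, rose by 0.93, but a single gene does not describe the relation with length.

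**Figure D4:**
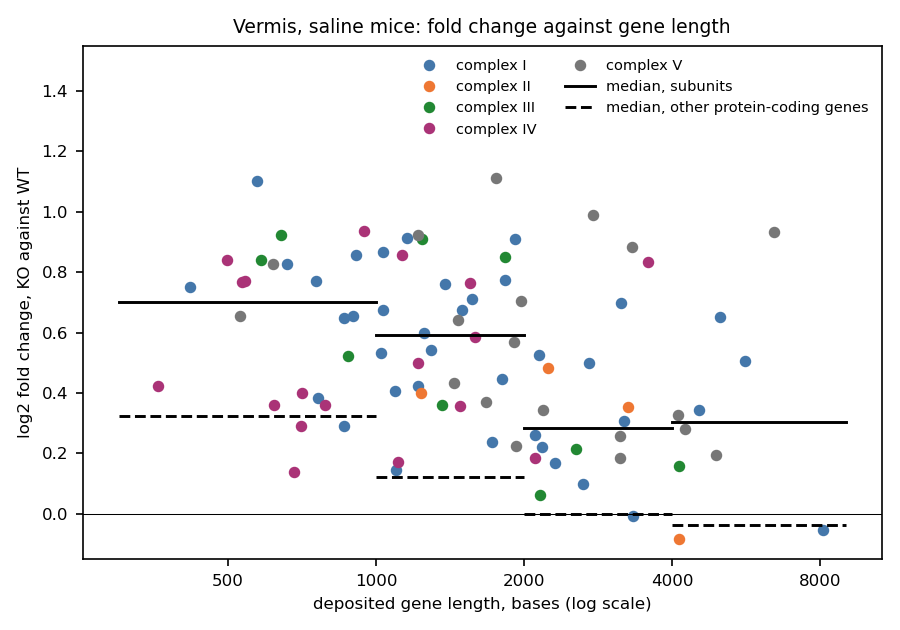
Log2 fold change between KO and WT vermis of saline mice against deposited gene length (log axis), 1 point per subunit, with medians per length class of the subunits (solid) and of other protein-coding genes (dashed). Both medians fall with length, and the subunits lie above the other genes in each class (0.70 against 0.33 below 1 kb).

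In the hippocampus no member passed in any comparison by edgeR, but the values of KO against WT in saline mice leaned the other way. Of 87 members 72 were lower in KO (median log2 difference -0.28, all genes 0.00), and 0 passed, where 0.00427% of all 23394 genes did. The share of all counts that fell on members overlapped between these groups. It was 0.660% ± 0.0477 in WT saline (0.627 to 0.730) and 0.608% ± 0.0541 in KO saline (0.556 to 0.669; SD, n = 4 each). At an unadjusted p under 0.05 there were 51 of 87, where 8.85% of all genes were, and DESeq2 called 29, all lower, where 0.78% of the genes it gave an adjusted p were called lower. All 4 KO saline libraries lay below all 4 WT saline libraries for 32 members, against 1.97% of genes, and above them for 1, against 2.74%. Cox6c, a common complex IV subunit, came nearest to the threshold. It was at 79.2, 105, 101 and 109 CPM in WT saline and at 65.3, 65.8, 68.2 and 62.6 CPM in KO saline hippocampus, with no overlap (log2 -0.58 ± 0.087, edgeR adjusted p = 0.0502).

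Ndufa5, a complex I accessory subunit, was at 29.9, 47.4, 38.1 and 42.3 CPM in WT saline and 26.0, 25.1, 23.3 and 24.9 CPM in KO saline (-0.67 ± 0.11, edgeR adjusted p = 0.0798). Atp5mg, Ndufa4 and Ndufc2 had differences of -0.61, -0.58 and -0.58 (edgeR adjusted p = 0.0567, 0.0798 and 0.0798). Medians differed by role: the median was -0.54 for the small membrane subunits of complex V, -0.44 for small complex III and -0.34 for accessory complex I subunits, against 0.00 for the complex I core and 0.09 for the complex III core proteins. Ndufa4l2 stood apart at 0.63 (edgeR adjusted p = 0.323). It is a marker of pericytes in brain, and the 13 pericyte and smooth muscle markers were all higher in KO, with none past the threshold (9 at an unadjusted p under 0.05), at a mean level of 3.01 to 3.19 in KO saline and 2.65 to 2.81 in WT saline on the log2 CPM scale. Their part in the result was not tested.

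WT saline M3 was the highest library. Its mean over all members was 5.65 on the log2 CPM scale, against 5.35 to 5.43 in the other WT saline hippocampus libraries. Without it the median difference was -0.19 and the median of complex IV -0.23, against -0.37 with it; without WT saline M1 the median was -0.36 and 14 members passed, all lower, where 0.37% of genes did. The 85 ribosomal protein genes had a median of -0.23, with 0 calls by edgeR and 44 at an unadjusted p under 0.05. In ethanol mice the KO comparison had a median of -0.03, and 0 members passed, where 0.171% of genes did. At an unadjusted p under 0.05 there were 6 of 87, a smaller share than the 9.92% of all genes, and DESeq2 called 0.

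The genotype effect differed between tissues. In the joint test with mouse as a block, the KO effect was higher in vermis than in hippocampus for 61 of 88 members in saline mice (median difference 0.79 on the log2 scale), where 3.15% of 24458 genes were higher, and for 51 in ethanol mice (median 0.58), where 2.06% were. Without both libraries of WT saline F1 there were 59 in saline mice (median 0.84), and the share of all genes is not given for this fit. No member passed with a lower KO effect in vermis, where 0.204% and 0.335% of genes did. Atp5mg, Cox7a2 and Cox6c differed most clearly in saline mice, by 1.52, 1.47 and 1.41 (edgeR adjusted p = 5.61e-07 for each), while Sdha, Ndufs1 and Cyc1 differed by -0.11, -0.11 and 0.05 (edgeR adjusted p = 0.699, 0.650 and 0.871). In saline mice 72 of 87 members were higher in KO vermis and lower in KO hippocampus, 12 higher in both and 3 lower in vermis and higher in hippocampus. Across the 87 members the 2 tissues' log2 differences had a Pearson r of -0.71 and a Spearman rho of -0.78; the libraries are separate but come from the same mice, members are not independent, and both tissues' values varied with gene length (Spearman rho -0.35 in vermis and 0.48 in hippocampus).

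**Figure D5:**
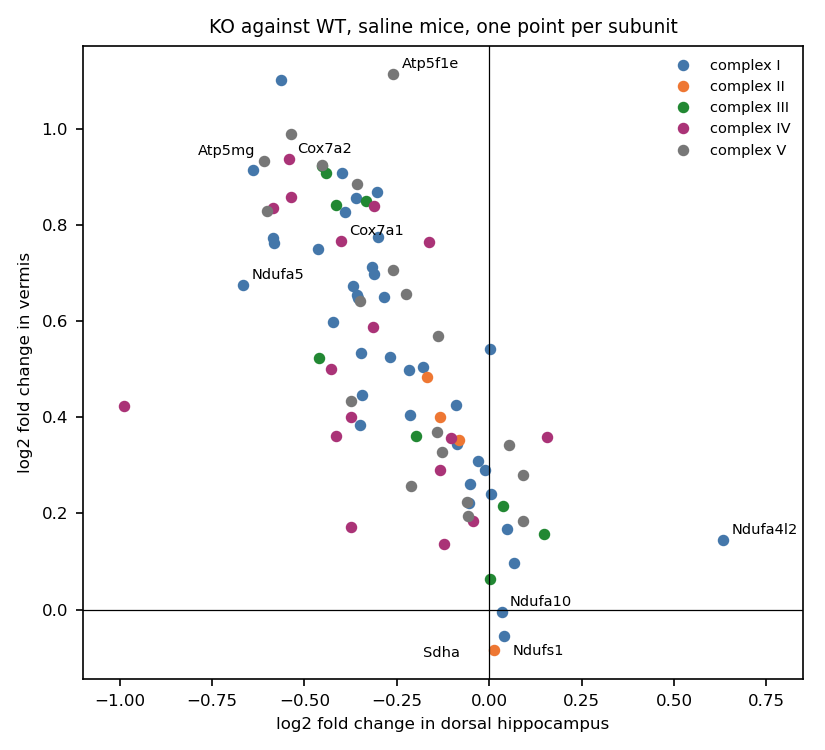
Log2 fold change between KO and WT saline mice in vermis (vertical) against dorsal hippocampus (horizontal), 1 point per subunit, coloured by complex. Of 87 subunits 72 lie in the upper left, higher in KO vermis and lower in KO hippocampus, and Sdha, Ndufs1 and Ndufa10 lie near 0 on both axes.

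Prenatal ethanol changed no member past the threshold in either tissue or genotype. In vermis the medians were -0.02 in WT and -0.01 in KO, with 0 calls where 0.00446% and 0.0891% of genes were called. At an unadjusted p under 0.05 there were 2 and 3 of 88 members, smaller shares than the 5.32% and 13.3% of all genes, and DESeq2 called 0. Without WT saline F1 the median in WT was 0.02, again with 0 calls. Cox4i1 in vermis, for instance, was at 206 ± 15.5 CPM in WT saline and 205 ± 14.6 CPM in WT ethanol. In WT hippocampus 76 of 87 members were lower after ethanol, with a median of -0.18, and 0 passed, where 0% of genes did. At an unadjusted p under 0.05 there were 41 of 87, where 10.5% of all genes were, and DESeq2 called 6, all lower, where 0.407% of the genes it gave an adjusted p were called lower. Only 3 members had all ethanol libraries below all saline ones, against 2.72% of genes. This comparison and the KO comparison in saline mice share the WT saline libraries, M3 among them.

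In KO hippocampus the median after ethanol was 0.03, with 0 calls where 0.0513% of genes were called (edgeR; 0 by DESeq2). No member of 87 was under an unadjusted p of 0.05, where 9.31% of all genes were. The interaction of genotype and exposure called 0 members in hippocampus, where 0.175% of genes were called, and 0 in vermis, where 0.107% were (edgeR; 0 by DESeq2 in both). At an unadjusted p under 0.05 there were 23 of 87 in hippocampus, where 9.94% of all genes were, and 83 of 87 values were positive. In vermis there was 1 of 88, a smaller share than the 11.2% of all genes. The tissue difference of the ethanol effect called 0 members in WT, where 0% of genes were called, and 0 in KO, where 0.00409% were (edgeR; 0 by DESeq2 in both). Under an unadjusted p of 0.05 were 21 of 88 in WT, where 4.98% of all genes were, and 3 of 88 in KO, a smaller share than the 6.03% of all genes. The hippocampal interaction and the WT tissue difference both use the WT saline hippocampus libraries, M3 among them. So does the tissue difference of the KO effect in saline mice.

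Over all groups the members were more abundant in vermis than in hippocampus. Of 88 members 81 were higher and 3 lower (median log2 difference 0.41), where 34.6% of genes were higher and 38% lower. The medians by complex were 0.45, 0.36, 0.37, 0.37 and 0.41 from complex I to V. The KO vermis libraries enter this average, and the KO effect was higher in vermis for most members. Ndufb2 (0.74 ± 0.031, edgeR adjusted p = 8.71e-13) and Cyc1 (0.58 ± 0.027, adjusted p = 2.82e-12) had the smallest p. Cyc1 was at 87.5 ± 2.87 CPM in WT saline hippocampus and 137 ± 8.77 CPM in WT saline vermis, and the libraries did not overlap. In WT saline mice members went both ways. Cox6c went from 27.6 ± 3.74 CPM per kb in hippocampus to 21.3 ± 2.71 in vermis (SD), and Ndufa5 from 38.2 ± 7.20 to 28.1 ± 3.92. Atp5f1a went from 178 ± 8.14 to 231 ± 13.3, and Sdha from 84.0 ± 3.08 to 107 ± 6.02. The tissue difference was not tested in WT saline mice alone.

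The alternate isoforms split by tissue. Cox7b2, Cox7a1, Cox4i2 and Cox6b2 were higher in vermis by 2.06, 1.61, 1.18 and 1.13, and Ndufa4l2 by 0.55, whereas Cox6a2 and Cox8b were lower by log2 values of -0.76 and -1.41. Ndufa10 was the other lower member, at -0.13. Cox6a1, Ndufa8, Cox5b-ps and Cox7a2l did not pass (0.11, 0.08, 0.13 and -0.05); they are named because they are the only tested members that did not. Cox5b-ps is annotated as protein coding but is a retrocopy of Cox5b, so reads of Cox5b may be assigned to it.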

How the data were processed

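Gene-level read counts of 32 polyA RNA-seq libraries were deposited by the authors. Per the submitters' processing notes, cutadapt 5.0, STAR 2.7.10a and featureCounts 2.0.6 were used with GRCm39; multimapping and strand settings are not given in the sources used here. Between 85.1% and 91.6% of counts from 1 to 20 were even, so mates of a pair appear to have been counted separately. Reads of overlapping genes, antisense genes and retrocopies may not be separable. Libraries were checked for copies over 48 pairs within groups (lowest chi-square per degree of freedom 8.41).

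Tests were run with edgeR 4.0.16 under R 4.3.3 (filterByExpr by group, TMM, robust quasi-likelihood F-test, sex as covariate, 16 libraries per tissue), with Benjamini-Hochberg adjustment over all genes tested at 0.05. Adjusted p-values, SE and log2 fold changes come from these fits. The tissue comparison used all 32 libraries with mouse as a block. Log2 CPM used a prior count of 2. The M1, M3, F1 and F3 labels mark different mice in different groups. The length offset was a lowess fit (span 0.3) per library on deposited gene length. DESeq2 1.42.0 and other settings were alternatives, and the fit was tested on simulated data. Figures used matplotlib 3.10.9.

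Members and gene lists were chosen with earlier results of these data known. Named were, per comparison, up to 8 members per direction with the smallest p among those past the threshold at 1 CPM or more (the 5 smallest p where fewer than 3 passed), catalytic subunits, isoforms and common partners always, and up to 4 genes of each other list. Not every such gene is printed. Ndufa10, Uqcrc1, Uqcrc2, Cox5a and the biogenesis regulators near 0 were named after their values were seen. Gene symbols and promoters were matched to RefSeq by symbol or by a synonym held by a single gene. Of the deposited tables, the annotated gene counts were used and the others were not used here.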

Additional observations from a re-analysis of the deposited data

Results flagged for a closer look

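Genotype effects that differed between tissues, by the joint test of the difference itself, were found for 61 members in saline mice and 51 in ethanol mice. All had the higher KO effect in vermis, where 3.15% and 2.06% of all genes did. The saline difference uses the WT saline hippocampus libraries, M3 among them.

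Single libraries stood apart within their group of 4 by Dixon's ratio, the gap to the nearest library over the group's whole range, in 20 of 232 checks; chance alone gives about 1 in 20. In WT saline vermis, F1 was highest for the mean over all members (0.87), complex I (0.845), complex V (0.831), Atp5f1e (0.845) and Uqcrh (0.997), and M3 was lowest for Ndufs1 (0.887) and Sdhc (0.959). In WT ethanol vermis, F1 was highest for complex II (0.836), Cox7a2 (0.879) and Sdhb (0.881), and M1 was lowest for Ndufb4 (0.844). In KO ethanol vermis, F3 was lowest for complex IV (0.915), M1 highest for Cox4i2 (0.835), M3 lowest for Atp5f1b (0.86) and F1 highest for Atp5if1 (0.886). In hippocampus, WT saline M3 was highest for Atp5f1e (0.862) and Ndufv1 (0.875), WT ethanol M1 highest for complex II (0.913), KO saline F3 lowest for complex IV (0.8292) and KO ethanol F1 highest for Cox7c (0.983). The KO vermis groups still lay above the WT groups for Atp5f1e, Uqcrh, Cox7a2, Sdhb and Ndufb4.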

How the results depend on the processing

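In vermis the counts of members higher in KO stayed between 64 and 75 of 88 (saline) and between 53 and 71 (ethanol) over RLE scaling, DESeq2, no low-count filter, no sex term, protein-coding genes only, the length offset, only the groups compared and, added after seeing the data, leaving out KO ethanol F1 and F3 together. Leaving out each library in turn gave 63 to 74 and 57 to 73, and 63 and 57 members were called in every such fit. The lowest ethanol count, 53, came from fitting only the groups compared. Cox8a in KO ethanol vermis changed sign to -0.0253 with the length offset; the cause was not tested.

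In hippocampus, where no member passed, KO against WT in saline mice gave 29 members with DESeq2, 38 without the low-count filter (0.994% of genes lower) and 0 to 14 when each library was left out in turn (14 without WT saline M1, 1 each without KO ethanol F3 and WT ethanol F1), all lower. Ethanol in WT gave 6, 20 (0.674% of genes lower) and 0 to 3 (3 without WT saline M1, 0.08% of genes lower), all lower. Without the filter, ethanol in KO gave 1, KO against WT in ethanol mice 3 and the interaction 4. Where no share of all genes stands beside a count in this section, the share is not given here. The causes were not tested. The labels M1, M3, F1 and F3 mark different mice in different groups. Deviations of same-labelled libraries correlated from -0.27 to 0.41 in hippocampus (median 0.05) and from -0.31 to 0.26 in vermis (median 0.08). For other labels the ranges were -0.46 to 0.38 (median -0.03) and -0.54 to 0.48 (median -0.02). These values cannot show whether mice with the same label shared a litter or batch. With the replicate block in place of sex, 72 and 66 members rose in vermis and 0 passed in hippocampus. With no replicate block for mouse, the tissue comparison called 83 members and the tissue differences of the KO effect 62 and 53.

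The alternate isoforms lie at a few CPM, and the part of depth in their missing calls was not tested. The interaction fitted on only the groups compared was not run. Among single members, 9428 alternative values kept their side of the threshold and, if called, direction or, if not, moved by under their SE, 76 no longer passed, 74 newly passed, 65 moved by at least their SE with no call either way and 1 changed sign.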

Other observations

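Gene length, which varied with the genotype differences of members, showed no such relation with the difference between tissues averaged over all groups. Across 88 members that log2 difference of vermis and hippocampus had a Pearson r of -0.01 and a Spearman rho of -0.02 with log2 length. The KO groups enter this average. Their differences from WT in saline mice varied with length in opposite directions (Spearman rho -0.35 in vermis and 0.48 in hippocampus). The relation in WT mice alone was not computed. Members are not independent, and these are descriptions.

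Other motifs were rarer in the members' promoters. The ERR motif TCAAGGTCA was in 2 of 68 (2.94%, against 0.377% of protein-coding promoters) and the cyclic AMP response element TGACGTCA in 4 of 68 (5.88% against 2.54%). Members with the ERR motif had a median log2 difference of 0.37 between KO saline and WT saline vermis and those without it 0.53, and for the cyclic AMP response element the medians were 0.38 and 0.54. An NRF1, YY1 or ETS match was in 37 of 68 (54.4% against 20.9%).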
